A study of Mus musculus with 4 samples.

Results

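Mural endocardial cells that express *Dlk1* were examined in single-cell RNA sequencing of mouse ventricles at embryonic day 14.5. Cells were selected on counts of unique molecular identifiers (UMIs), each of which stands for 1 captured RNA molecule, and *Dlk1* itself was among the genes that chose them. A cell barcode had to hold 1000 to 7000 detected genes and at most 10% mitochondrial UMIs. Its summed *Tnnt2*, *Actc1*, *Tnnc1* and *Ttn* UMIs had to be under 0.5% of its total, which keeps out cardiomyocytes. It had to hold at least 4 UMIs of the endothelial genes *Pecam1*, *Cdh5*, *Emcn* and *Egfl7* together, and *Fabp4*, a gene of coronary endothelium, had to be under 0.1%. Its *Npr3*, *Ednrb* and *Adgrg6* UMIs had to sum to at least 2 and to more than its *Prox1*, *Nfatc1* and *Wnt4* UMIs, which separates the mural from the valve endocardium. Cells with more than 1 UMI of *Top2a* and *Mki67* were set aside as cycling. Of the 3732 non-cycling mural endocardial cells left by these limits, the 965 with at least 2 UMIs of *Dlk1* are the cells described here, out of 35351 barcodes within the limits on genes and mitochondrial UMIs and 45551 barcodes in all. The other 2767 cells are called the remaining mural endocardium.

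Controls were *Tie2*Cre;*Ets1* fl/+ and *Ets1* eKO (endothelial knockout) were *Tie2*Cre;*Ets1* fl/fl, with 2 libraries of each genotype, none treated. Each library pooled 3 ventricles, so that the 2 libraries of a group, called control 1, control 2, eKO 1 and eKO 2, are the replicates and their cells are not. *Ets1* encodes a transcription factor of the ETS family. All 4 libraries carried Cre driven by *Tie2*, which is active in endothelium, endocardium and blood cells, so that the endocardium of the control can lose 1 floxed allele and the comparison is between loss of 1 and of both alleles. The mice were kept on a C57BL/6 background, embryos of both sexes were taken without being sexed, and the labels give 1 batch for all libraries.

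The mural endocardium is the endothelial lining of the ventricular chambers. It faces the blood on one side and the trabeculae on the other, and it sends the muscle signals such as neuregulin 1. *Dlk1* encodes a membrane protein with EGF repeats that resembles the ligands of Notch receptors but lacks the domain by which those ligands activate the receptor, and it is often described as an inhibitor of Notch signalling. It is an imprinted gene expressed from the paternal chromosome, and in the same imprinted cluster the noncoding RNAs *Meg3*, *Rian* and *Mirg* are expressed from the maternal chromosome.

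Library totals ranged from 76931208 to 124140739 UMIs, and eKO 2 had the lowest median per barcode, at 5632 UMIs against 8222 to 8630 in the others. In total 191 barcodes occurred in more than 1 library, and 11 of the 965 cells share their barcode with another library. Sex-linked RNA divided the libraries. No mural cell of control 1 had *Xist* RNA, no mural cell of eKO 2 had Y-linked RNA without *Xist*, and the other 2 libraries held cells of both kinds. The labels do not say that the pools of a group differ in anything but replicate number, so p-values measure the spread between these libraries.

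Of the 10 markers listed for mural endocardium, *Dlk1*, *Npr3*, *Ednrb* and *Adgrg6* belong to the selection and do not check the label. The other 6 were detected in the 4 libraries, with a summed level of 2766 to 3903 CPM (UMIs per 1000000 UMIs of the class in a library), against 3025 to 4135 CPM in the remaining mural endocardium, 2092 to 2363 CPM in the valve gate and 272 to 404 CPM in the coronary gate. In each library the sum was lower than in the remaining mural endocardium and higher than in the valve gate. The epicardial gate summed to 1397 to 1664 CPM. Against the valve gate the markers did not all go the same way. *Tmem108*, *Cdh11*, *Cgnl1* and *Plvap* were higher than there in each library. *Hapln1* was lower, at 13.4 to 28.3 CPM against 519 to 635 CPM, and *Cytl1* overlapped, at 24.9 to 42.6 CPM against 24.7 to 56.3 CPM. *Npr3*, the natriuretic peptide clearance receptor, was at 915 and 969 CPM in control and at 796 and 624 CPM in eKO. *Ednrb*, an endothelin receptor, was at 1218 and 1045 CPM in control and 850 and 921 CPM in eKO. As the selection sets these values, they are a description, and the levels in the remaining mural endocardium (661 to 895 CPM for *Npr3* and 891 to 1129 CPM for *Ednrb*) cover a similar range. Markers of other cell types differed widely in level. The 8 coronary markers summed to 5807 to 7600 CPM against 5220 to 6986 CPM in the remaining mural endocardium, of which *Fabp5* alone gave 5775 to 7523 CPM in the *Dlk1*-expressing cells. The neural crest markers *Sox10* and *Foxd3* and the capillary marker *Car4* were at 0 in all 4 libraries, the 6 epicardial markers summed to 20.1 to 52.8 CPM against 8.58 to 12.5 CPM in the remaining mural endocardium, and the 9 macrophage markers to 25.7 to 93.2 CPM against 44.0 to 119 CPM. The 10 mesenchymal markers summed to 769 to 1025 CPM against 653 to 1091 CPM, the 15 cardiomyocyte markers to 529 to 1735 CPM against 798 to 1992 CPM, and the 8 erythroid markers to 729 to 5699 CPM against 1917 to 7855 CPM. A UMI of an epicardial gene (*Upk3b*, *Wt1*, *Upk1b* or *Msln*) was held by 8 of 163, 6 of 97, 13 of 265 and 24 of 440 of the cells in control 1, control 2, eKO 1 and eKO 2, and by 4.43%, 5.11%, 4.94% and 3.20% of the remaining cells.

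A larger share of the mural endocardium met the *Dlk1* threshold in *Ets1* eKO ventricles. In control 1, 163 of 908 non-cycling mural cells did so, or 18.0% with an exact 95% binomial interval of 15.5 to 20.6%. In control 2 it was 97 of 625, or 15.5% (12.8 to 18.6%). In eKO 1 the count was 265 of 791, or 33.5% (30.2 to 36.9%), and in eKO 2 it was 440 of 1408, or 31.3% (28.8 to 33.7%). The 2 control libraries lay below the 2 eKO libraries, with means of 16.7% ± 1.72 (SD, n = 2) and 32.4% ± 1.59 (SD, n = 2). Since *Dlk1* chose these cells, the 15.6 points between the means are a description with no test, and the intervals cover counting error only. Median depth per barcode separated the groups as well, at 8630 and 8369 UMIs in control and 8222 and 5632 UMIs in eKO. After every cell was thinned to 3000 UMIs, which left out 46, 21, 26 and 226 cells of the 4 libraries, the shares were 7.77% and 5.13% in control and 17.8% and 21.7% in eKO. With 1 UMI as the threshold the shares were 30.9% and 26.7% in control and 49.1% and 51.7% in eKO, and with 4 UMIs they were 8.26% and 5.76% against 16.9% and 12.8%.

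**Figure D1:**
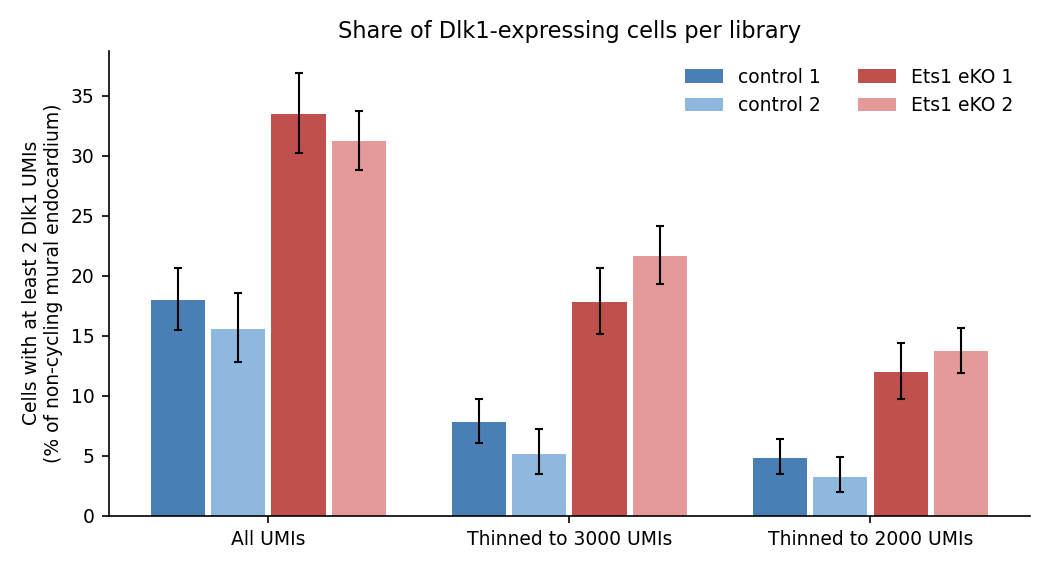
Percent of non-cycling mural endocardial cells with at least 2 *Dlk1* UMIs in each of the 4 libraries, for all UMIs and after thinning to 3000 or 2000 UMIs per cell, with exact 95% binomial intervals as error bars. The control libraries lie at 15.5% and 18.0% and the *Ets1* eKO libraries at 31.3% and 33.5% with all UMIs, and the control bars stay below the eKO bars after both thinnings.

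Male and female cells of the mixed libraries had similar shares. In control 2, 15.8% of 266 cells with *Xist* RNA and 16.7% of 281 cells with Y-linked RNA met the threshold. In eKO 1 the shares were 34.9% of 455 cells with *Xist* RNA and 29.4% of 211 cells with Y-linked RNA. Within each kind of cell the eKO library thus lay above the control library.

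Most of the cells sat close to the threshold. The median was 3 *Dlk1* UMIs per cell in control 1, control 2 and eKO 2 and 4 in eKO 1, and the highest counts were 24 UMIs in control 1, 12 in control 2, 23 in eKO 1 and 20 in eKO 2. At the cells' median depth, 2 UMIs correspond to 230, 231, 265 and 437 CPM in control 1, control 2, eKO 1 and eKO 2, so that the same threshold asks for a higher level in the shallower library. The selected cells were deeper than the remaining mural endocardium in every library, with medians of 8685, 8667, 7541 and 4578 UMIs against 6497, 7024.5, 6348 and 4080 UMIs. Comparisons between the 2 sets of cells are therefore given also with *Dlk1* counted in the thinned cells, where the medians were 7084, 6833, 6997.5 and 4391.5 UMIs against 6891, 7262, 6716 and 4593.5 UMIs.

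Just inside the threshold, cells with exactly 2 *Dlk1* UMIs numbered 59, 35, 74 and 163 in the 4 libraries, and just outside it 118, 70, 123 and 288 cells had exactly 1. The cells with 2 UMIs had *Meg3* at 67.7, 113, 281 and 322 CPM and *Vcan*, the proteoglycan versican, at 48.4, 101, 78.5 and 65.5 CPM. Those with 1 UMI had *Meg3* at 57.6, 43.6, 217 and 286 CPM and *Vcan* at 79.1, 37.4, 149 and 101 CPM. The netrin receptor gene *Unc5c* was at 23.2, 26.1, 26.2 and 28.4 CPM inside and 38.1, 12.5, 36.9 and 36.3 CPM outside, and *Cdkn1c*, a cyclin-dependent kinase inhibitor gene, at 6476, 6650, 7218 and 9335 CPM inside and 6037, 7196, 7243 and 8461 CPM outside. *Meg3* was higher inside the threshold in all 4 libraries. *Vcan* and *Unc5c* were lower there in 3 libraries and higher in control 2, and *Cdkn1c* was higher there in control 1 and eKO 2 and lower in control 2 and eKO 1.

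*Dlk1* RNA was not confined to these cells. In the selected cells, whose level the rule sets, *Dlk1* was at 425 and 334 CPM in control and 533 and 703 CPM in eKO. In the remaining mural endocardium it was at 21.2 and 17.1 CPM in control and 34.1 and 65.9 CPM in eKO, where the rule allows at most 1 UMI per cell. Among cycling mural cells, 10.8% and 15.4% in control and 41.3% and 45.3% in eKO had at least 2 *Dlk1* UMIs, at levels of 43.5 and 55.0 CPM against 180 and 273 CPM. These cycling cells were deeper, with median depths of 7025 to 12312.5 UMIs.

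Endothelium outside the mural wall had little *Dlk1* in control. The valve endocardium gate held 0 of 114 and 0 of 120 cells with 2 *Dlk1* UMIs in control, which at 3 counts of the total allows shares of up to 2.63% and 2.50%, and 4 of 129 and 7 of 117 cells in eKO. The coronary endothelium gate held 0 of 200 and 0 of 97 such cells in control, which allows up to 1.5% and 3.09%, and 9 of 171 and 13 of 336 in eKO. The levels in the coronary gate were 1.34 and 1.96 CPM in control and 24.0 and 29.8 CPM in eKO. As a measure of free RNA, cells that should lack *Dlk1* were counted the same way. In the cardiomyocyte gate 0.202% to 0.497% of cells had 2 UMIs, at median depths of 8484.5 to 13883 UMIs, and in the macrophage gate 0.441% did in eKO 2 and none did in the other 3 libraries. Epicardial and mesenchymal cells held *Dlk1* as well, at 434 to 718 CPM and 245 to 465 CPM.

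**Figure D2:**
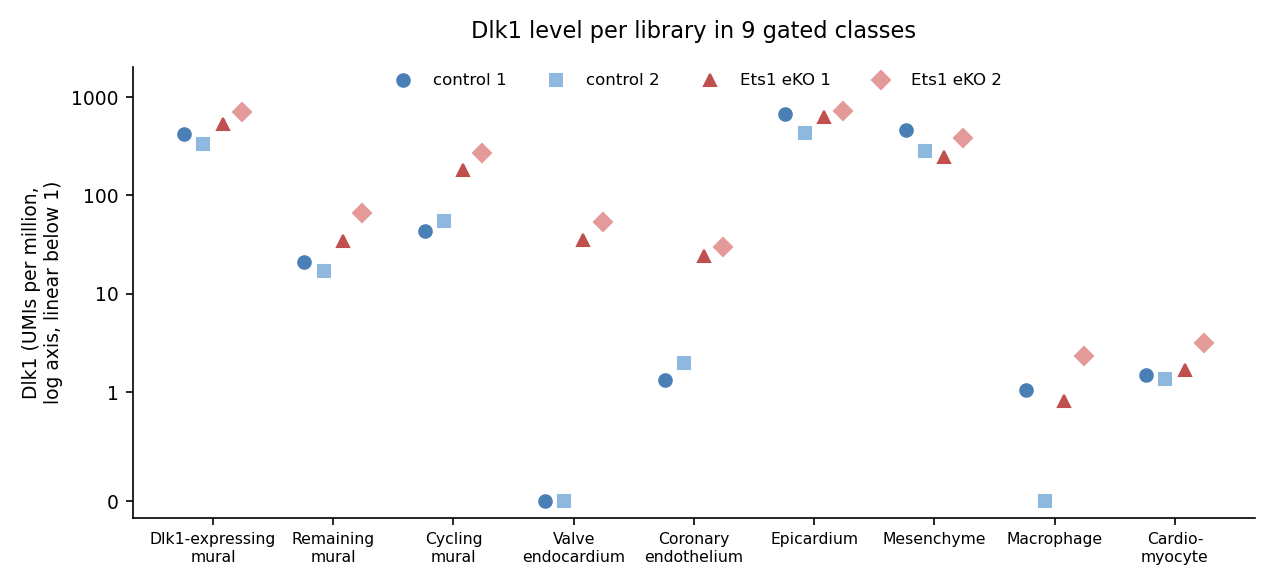
*Dlk1* level in CPM of each gate, on a log axis that is linear below 1, with 1 point per library and the gates side by side. Control and *Ets1* eKO points separate in the endothelial gates and overlap in the epicardial and mesenchymal gates.

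The neighbours of *Dlk1* in its imprinted cluster on chromosome 12 were measured in the same cells, and their promoter windows are shown because the study treats *Dlk1* as a direct target of ETS1. The windows run from 250 bases before to 50 after the RefSeq start site in GRCm38.p6, all on the plus strand. Capitals mark GGAA, the core of the ETS binding motif, or its reverse complement TTCC, searched on both strands.
Dlk1: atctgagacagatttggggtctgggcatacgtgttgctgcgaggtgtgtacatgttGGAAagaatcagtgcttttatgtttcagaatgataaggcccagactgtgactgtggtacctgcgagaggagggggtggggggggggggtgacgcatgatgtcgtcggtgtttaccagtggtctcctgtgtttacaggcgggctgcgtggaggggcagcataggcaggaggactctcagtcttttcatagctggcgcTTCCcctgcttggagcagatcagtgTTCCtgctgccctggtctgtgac
Meg3: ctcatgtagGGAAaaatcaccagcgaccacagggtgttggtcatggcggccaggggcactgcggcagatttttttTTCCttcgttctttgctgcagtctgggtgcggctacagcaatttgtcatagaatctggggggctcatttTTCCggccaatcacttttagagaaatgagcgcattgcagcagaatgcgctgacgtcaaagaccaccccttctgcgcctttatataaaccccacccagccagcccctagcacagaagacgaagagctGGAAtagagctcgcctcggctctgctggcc
Rian: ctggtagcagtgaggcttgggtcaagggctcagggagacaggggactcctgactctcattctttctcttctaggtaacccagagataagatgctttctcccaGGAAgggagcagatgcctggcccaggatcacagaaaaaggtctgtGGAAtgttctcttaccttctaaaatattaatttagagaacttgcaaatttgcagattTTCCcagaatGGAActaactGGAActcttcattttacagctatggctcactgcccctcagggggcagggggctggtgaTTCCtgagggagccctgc
The *Dlk1* window (chr12:109452573-109452872) holds 3 matches, the *Meg3* window (chr12:109540746-109541045) 4 and the *Rian* window (chr12:109603695-109603994) 6. *Meg3* had 2 windows, of which only the window with the lowest start is shown and described. GGAA is found in 96.0% of the 32851 windows of this length, with a median of 3 matches, so these counts set no gene apart. None of the 3 windows shown holds the longer ETS site CCGGAAGT, which 3.89% of all windows hold on either strand. A match of letters is a description and not a binding site.

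*Dlk1* (ENSMUSG00000040856) lies at chr12:109452823-109463336 in GRCm38 (GENCODE annotation), *Meg3* (ENSMUSG00000021268), a lincRNA, starts 77.7 kb downstream at chr12:109541001-109571726, and *Rian* (ENSMUSG00000097451) lies 32.2 kb beyond it at chr12:109603940-109661716. Both noncoding RNAs were higher in the *Dlk1*-expressing cells than in the remaining mural endocardium, and both were higher in eKO than in control. In the *Dlk1*-expressing cells *Meg3* was at 117 and 157 CPM in control and 323 and 389 CPM in eKO, and in the remaining mural endocardium at 66.0 and 74.8 CPM in control and 238 and 258 CPM in eKO. Every library thus had more *Meg3* in the *Dlk1*-expressing cells, and every eKO value exceeded every control value. The log2 difference between the 2 classes was 0.69 ± 0.07 (SE, edgeR adjusted p = 1.32e-07), with 0.72 when the classes were formed on thinned counts. The log2 fold change of eKO over control was 1.45 ± 0.19 in the *Dlk1*-expressing cells (adjusted p = 0.000761) and 1.87 in the remaining mural endocardium (adjusted p = 0.000116), 2 comparisons that share no cells but share their libraries, and their difference was not past the threshold (-0.40, adjusted p = 0.426). High levels of these RNAs did not need *Dlk1*. The valve endocardium gate, with *Dlk1* at 0 CPM in control, had more of both than the *Dlk1*-expressing cells in each library. There *Meg3* was at 970 and 992 CPM in control and 1081 and 727 CPM in eKO. *Rian* was there at 103 and 115 CPM in control and 112 and 71.6 CPM in eKO.

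*Rian* followed at lower levels. It was at 14 and 29.7 CPM in control and 43.6 and 67.6 CPM in eKO in the *Dlk1*-expressing cells, and at 10.1 and 12.0 CPM in control and 34.9 and 36.9 CPM in eKO in the rest. The class difference was 0.74 ± 0.13 (edgeR adjusted p = 0.00069; 0.73 thinned) and the fold change of eKO in the *Dlk1*-expressing cells 1.49 ± 0.31 (adjusted p = 0.0236, or 0.070 with sex as a term). *Mirg* was near the limit of detection, at 4.79 to 11.0 CPM in the *Dlk1*-expressing cells, and did not pass in them (0.77 ± 0.48, edgeR adjusted p = 0.445). In the remaining mural endocardium *Mirg* was called higher in eKO, at 1.62 and 1.22 CPM in control and 7.75 and 5.04 CPM in eKO. As shares of cells thinned to 3000 UMIs, *Meg3* was detected in 13.0% and 16.5% of the *Dlk1*-expressing cells in control and 39.9% and 48.9% in eKO. An exact permutation test of 2 against 2 libraries cannot go below p = 0.33, which is the value it gave for this share.

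**Figure D3:**
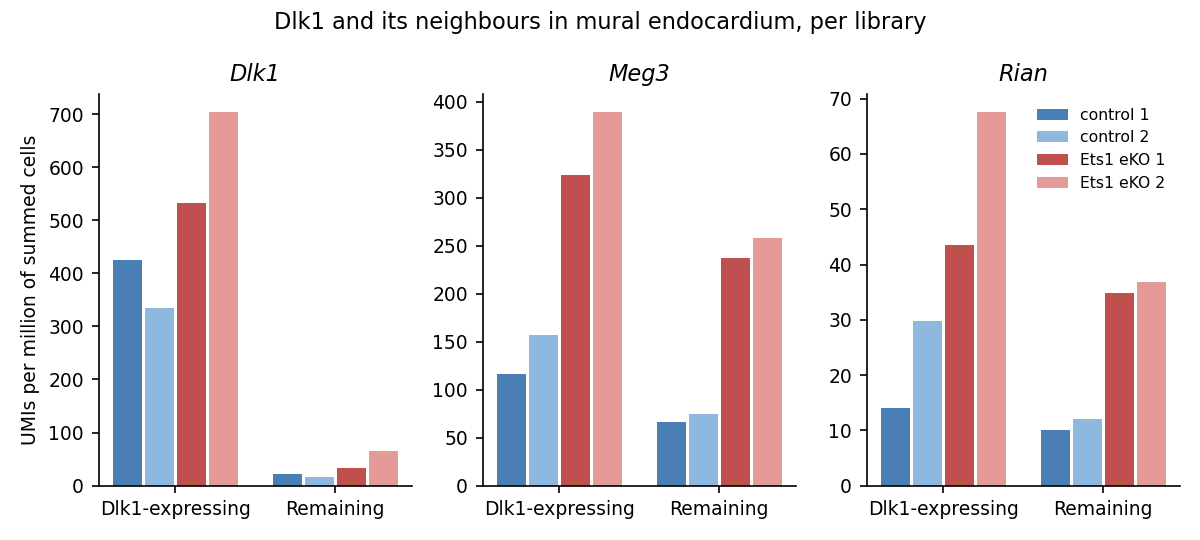
Levels of *Dlk1*, *Meg3* and *Rian* in CPM in the *Dlk1*-expressing cells and in the remaining mural endocardium, with 1 bar per library and a scale of its own for each gene. *Meg3* is at 117 and 157 CPM in control and at 323 and 389 CPM in *Ets1* eKO in the *Dlk1*-expressing cells, and each library lies lower in the remaining mural endocardium.

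Compared with the remaining mural endocardium of the same library, the *Dlk1*-expressing cells had more RNA of the imprinted genes *Cdkn1c* and *Mest*, cyclin D1, type IV collagen and *Igfbp4*, and less RNA of versican and its link protein, the netrin receptor *Unc5c* and neuregulin 1. With library as a block, edgeR called 400 genes higher (3.39%) and 370 lower (3.14%) at an adjusted p of 0.05, which is 6.53% of the 11788 tested, and 26.2% of all genes had the same sign in the 4 libraries. With counts scaled to their totals the split was 223 higher and 526 lower, and that scaling moved the median of all genes by -0.04. Of these 770 calls, 211 were also called in the same direction when *Dlk1* was counted in thinned cells, where 67, 31, 136 and 256 cells of the 4 libraries formed the class, and 8 had the opposite sign. Genes of the selection rule, which get no reading here, make up 2 of the higher and 5 of the lower calls. Where a value is marked as thinned, it comes from the thinned classes.

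*Cdkn1c*, an imprinted inhibitor of cyclin-dependent kinases, was among the most abundant RNAs of these cells. It was at 6796 and 7755 CPM in control and 8277 and 9743 CPM in eKO, above the remaining mural endocardium in each library, and the log2 difference was 0.45 ± 0.02 (edgeR adjusted p = 3.87e-13; 0.40 with thinned classes). *Mest*, an imprinted hydrolase-like gene, was at 1278, 1341, 1334 and 1610 CPM and higher by 0.34 ± 0.03 (adjusted p = 1.33e-07; 0.33 thinned). *Peg3*, an imprinted zinc finger gene, was higher by 0.25 ± 0.05 (edgeR adjusted p = 0.00236; 0.26 thinned). *H19*, an imprinted noncoding RNA, was higher by 0.16 ± 0.03, which did not hold in the thinned classes (0.03, adjusted p = 0.758). Of the 16 imprinted growth genes tested, 5 were higher (these 4 and *Plagl1*) and 3 lower (*Grb10*, *Nnat* and *Airn*), with a median of 0.04 against 0.00 over all genes. *Igf2*, the growth factor of the *H19* domain, was at 1543 to 1856 CPM and differed by 0.02 ± 0.03 (edgeR adjusted p = 0.775).

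*Ccnd1*, the cyclin of early G1, was at 236 and 366 CPM in control and 303 and 364 CPM in eKO in the *Dlk1*-expressing cells, against 158, 213, 196 and 291 CPM in the rest. Each library was higher in the *Dlk1*-expressing cells, by 0.60 ± 0.06 on the log2 scale (edgeR adjusted p = 1.32e-07; 0.39, adjusted p = 0.00184, with thinned classes). Of 15 S phase genes, 3 were higher, the replication licensing genes *Mcm2*, *Mcm3* and *Mcm7* (0.43, 0.43 and 0.57), none of which passed in the thinned classes. Both classes exclude cells with more than 1 UMI of *Top2a* and *Mki67*, and the list's median was 0.28.

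In the basement membrane, 6 of 17 genes were higher and 1 was lower, with a median of 0.11. *Col4a1* and *Col4a2*, the chains of its type IV collagen, were higher by 0.31 ± 0.04 and 0.33 ± 0.05 (edgeR adjusted p = 5.53e-06 and 2.89e-05), and both passed with thinned classes (0.25 and 0.32). *Sparc*, a collagen-binding protein, was at 1195 to 1480 CPM and higher by 0.31 ± 0.03 (edgeR adjusted p = 5.24e-07; 0.23 thinned). The lower gene was *Hmcn1*, which encodes hemicentin 1, an extracellular matrix protein. It was at 1271, 1044, 849 and 480 CPM in the *Dlk1*-expressing cells, lower than the rest of its library in all 4 and by -0.29 ± 0.03 (edgeR adjusted p = 1.74e-06; -0.24 thinned).

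The cardiac jelly is the matrix between endocardium and myocardium, and 2 of its 10 listed genes were lower in the *Dlk1*-expressing cells. *Vcan*, the proteoglycan versican, was at 53.6 and 83.3 CPM in control and 59.3 and 58.3 CPM in eKO, against 148 and 105 CPM in control and 269 and 166 CPM in eKO in the remaining mural endocardium. *Vcan* was lower in the *Dlk1*-expressing cells of each library, and the difference was -1.49 ± 0.13 (edgeR adjusted p = 3.27e-08), or -2.16 with thinned classes. *Hapln1*, the link protein that binds versican to hyaluronan, was at 13.4 to 28.3 CPM against 35.1 to 52.0 CPM (-0.94 ± 0.14, edgeR adjusted p = 0.00011; -1.72 thinned). The other 8 did not pass, and the median of the list was -0.30. *Hapln1* is also in the list of mural endocardium markers, in which *Cdh11*, a cadherin, was also lower and *Plvap*, a protein of endothelial fenestrae, higher, none of them part of the selection.

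Among guidance genes, 5 of 17 were lower and 1 was higher. *Unc5c* (chr3:141465216-141834924), a netrin receptor, was at 16.4, 17.2, 18.7 and 20.7 CPM against 46.2, 43.0, 88.9 and 55.4 CPM. It differed by -1.67 ± 0.13 (edgeR adjusted p = 4.29e-09), or -2.67 with thinned classes, and was the largest fall among the genes named by size. *Ntn4*, a netrin, was at 0.958 to 6.70 CPM against 11.2 to 30.2 CPM (-1.91 ± 0.26, edgeR adjusted p = 2.16e-05; -1.61 thinned). The higher gene was *Sema3d*, a semaphorin, at 5.75 to 15.7 CPM against 2.20 to 4.71 CPM (1.51 thinned), and it was no longer tested once cells with an epicardial UMI were left out.

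Signals that the endocardium sends were lower or did not pass the test. *Nrg1*, whose product acts on ERBB receptors of trabecular cardiomyocytes, was at 315 and 300 CPM in control and 186 and 247 CPM in eKO, against 344, 373, 343 and 316 CPM in the rest. It was lower in the *Dlk1*-expressing cells of each library, by -0.38 ± 0.07 (edgeR adjusted p = 0.00119; -0.36, adjusted p = 0.0289, thinned). Of 15 endocardial signal genes, 4 were lower and none was higher. The others were *Edn1* (endothelin 1, -0.57 ± 0.15), *Efnb2* (ephrin B2, -0.34 ± 0.06) and *Bmp6* (-0.32 ± 0.09), and the list's median was -0.11. In the thinned classes *Edn1* (-0.86) and *Bmp6* (-0.51) passed and *Efnb2* (-0.28, edgeR adjusted p = 0.0933) did not. In the insulin-like growth factor axis, the binding protein genes *Igfbp4* and *Igfbp5* were higher by 0.32 ± 0.04 and 0.25 ± 0.04 (edgeR adjusted p = 2.05e-06 and 0.000104), and the receptor gene *Igf1r* was lower by -0.28 ± 0.07 (adjusted p = 0.0108). In the thinned classes *Igfbp4* (0.31) and *Igf1r* (-0.33) passed and *Igfbp5* (0.15, edgeR adjusted p = 0.0786) did not.

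In the Notch pathway, 2 of 23 genes were called between the classes, a share near the 6.53% of all genes. *Maml3*, a coactivator of the Notch intracellular domain, was at 122 and 122 CPM in control and 86.3 and 85.7 CPM in eKO, against 200, 195, 163 and 123 CPM in the rest, lower by -0.67 ± 0.07 (edgeR adjusted p = 1.48e-07; -0.74 thinned). *Adam10*, the protease that cleaves Notch receptors at the surface, was lower by -0.19 ± 0.06 (adjusted p = 0.041), which did not hold in the thinned classes. *Notch1* differed by 0.08 ± 0.05 (edgeR adjusted p = 0.445), the ligand *Dll4* by -0.11 ± 0.15 (adjusted p = 0.756) and *Rbpj*, the transcription factor of the pathway, by 0.00 ± 0.08, and the median of the list was 0.00. Among endocardial transcription factors, 5 of 16 were lower, such as *Gata4* (-0.27 ± 0.07, edgeR adjusted p = 0.0149; -0.41 thinned), and *Irx5* was higher.

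**Figure D4:**
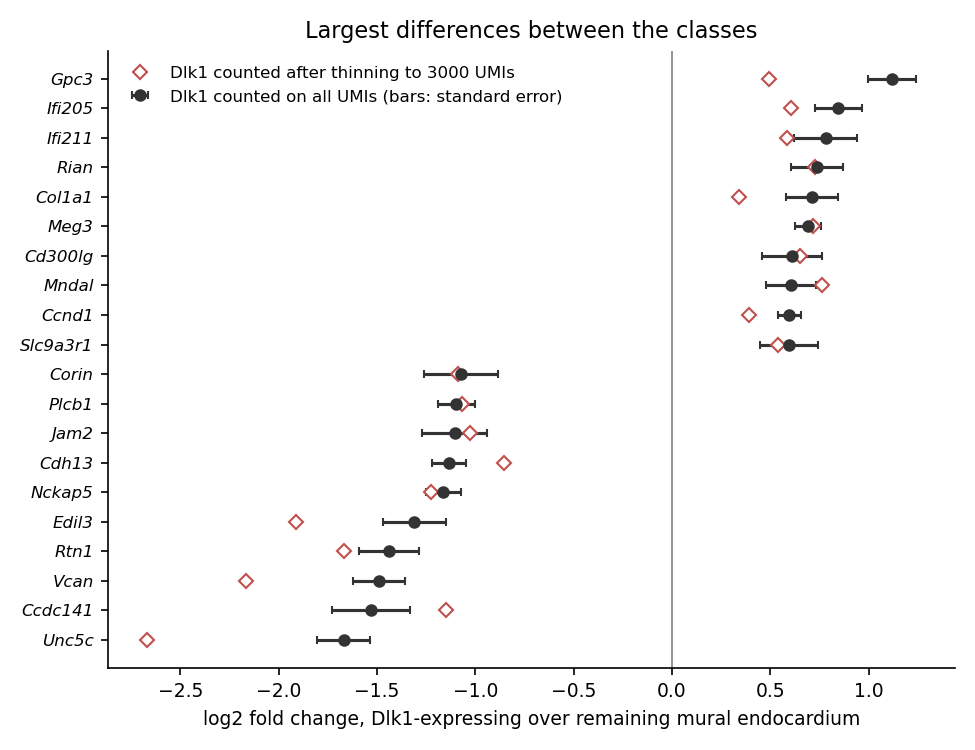
Log2 difference between the *Dlk1*-expressing cells and the remaining mural endocardium of the same library for the 10 largest differences in each direction by the naming rule, with filled points and bars of 1 standard error for the classes as selected and open diamonds for classes formed on counts thinned to 3000 UMIs. *Unc5c* lies farthest to the left with both, at -1.67 and -2.67, and *Gpc3* moves most among the higher genes.

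How many ribosomal protein and respiratory chain genes were called depended on the setting. Ribosomal protein genes were higher for 56 of 76 tested, with a median of 0.12, and nuclear genes of oxidative phosphorylation for 22 of 82, with a median of 0.14, and in both lists none was lower. In the thinned classes these counts were 4 of 76 and 0 of 83 (28 and 26 at an unadjusted p under 0.05), with medians of 0.07 and 0.13, and in cells of 5000 to 15000 UMIs they were 9 of 76 and 0 of 81. DESeq2 called 56 and 12 of them. Of 10 RNAs kept in the nucleus or often raised by technical causes, 7 were lower. *Malat1*, a nuclear noncoding RNA, was at 9336, 7530, 12914 and 8491 CPM and lower by -0.40 ± 0.03 (edgeR adjusted p = 7.37e-10; -0.27, adjusted p = 4.91e-10, thinned). *Gm42418* and *Cmss1* were lower by -0.27 and -0.35, and by -0.07 and -0.05 in the thinned classes, neither of which passed. Several of the lower genes are long ones, such as *Unc5c*, *Plcb1* (-1.10 ± 0.10; -1.07 thinned), *Cdh13* (-1.13 ± 0.09; -0.85 thinned), *Nckap5* (-1.16 ± 0.09; -1.23 thinned) and *Nrg1*, and gene length and the part of nuclear RNA in these values was not tested.

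Of 3 epicardial markers tested, 2 were higher in the *Dlk1*-expressing cells. *Upk3b*, a uroplakin of mesothelium, was at 5.48 to 18.6 CPM in the *Dlk1*-expressing cells and 0.18 to 0.277 CPM in the rest, and *Aldh1a2*, which makes retinoic acid, at 2.87 to 6.33 CPM against 0 to 0.359 CPM. *Wt1*, a transcription factor of the epicardium, overlapped between the classes, at 5.75 to 10.9 CPM against 6.92 to 9.78 CPM. Of the other marker lists, 5 of 11 cardiomyocyte markers were lower, 4 of 7 erythroid markers were lower and 1 higher, 3 of 9 mesenchymal markers were lower and 2 higher, and their part in the class differences was not tested. *Gpc3*, a glypican that was at 39.7 to 46.4 CPM against 16.1 to 26.1 CPM, was higher by 1.12 ± 0.12 (edgeR adjusted p = 8.08e-07), without the cells that held an epicardial UMI by 0.26 (adjusted p = 0.66), and turned to -0.33 without the highest doublet scores (adjusted p = 0.516). *Col1a1*, a fibrillar collagen gene, was higher by 0.71 ± 0.13 and turned to -0.19 without the cells that held an epicardial UMI. Without those cells *Meg3* differed by 0.55, *Cdkn1c* by 0.46, *Vcan* by -1.46 and *Unc5c* by -1.88 (edgeR adjusted p from 2.04e-14 to 2.43e-06). *Ifi205*, *Ifi211* and *Mndal*, interferon-inducible genes of 1 family whose similar sequences make their counts uncertain, were higher by 0.85, 0.78 and 0.61 with all cells and by 0.89, 0.84 and 0.66 without those cells.

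Within the *Dlk1*-expressing cells, these genes varied with the number of *Dlk1* UMIs, which is given as a description because cells with more *Dlk1* UMIs were also deeper in most libraries. From cells with 2 to 3 UMIs to cells with 8 or more, *Vcan* went from 67.0 to 20.2 CPM in control 1, from 118 to 17.2 CPM in control 2, from 77.5 to 21.7 CPM in eKO 1 and from 68.6 to 15.7 CPM in eKO 2. *Nrg1* went from 400 to 218, from 356 to 207, from 201 to 128 and from 298 to 141 CPM. *Vcan* and *Nrg1* were thus lower at high *Dlk1* in every library. *Cdkn1c* went the other way, from 6766 to 7012, from 7392 to 10792, from 7720 to 10092 and from 9248 to 11483 CPM. *Meg3* rose in 3 libraries and went from 171 to 68.9 CPM in control 2, whose cells with 8 or more UMIs numbered 7.

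Between genotypes, the *Dlk1*-expressing cells of *Ets1* eKO ventricles had less *Ets1*, *Sox18*, *Foxo1*, *Smad6* and immediate early gene RNA, and more of *Meg3* and *Rian*, metallothionein 1, collagen XV and the matrix genes *Lum*, *Col1a2* and *Dcn*. edgeR called 94 genes higher (0.899% of the 10460 tested) and 102 lower (0.975%), 1.87% in all, over 2 libraries against 2, with *Fabp4* of the selection rule among the higher, while the groups did not overlap for 47.6% of all genes. With counts scaled to their totals the split was 58 higher and 108 lower, with a shift of the median of all genes by -0.06. The same test in the remaining mural endocardium called 145 genes higher (1.21%) and 143 lower (1.19%), 2.4% of 12003. Sex and genotype were not balanced over the libraries, and with sex as a term 56 genes were higher and 59 lower. That fit summed male and female cells of a mixed library apart and had no library term. Parts of the same library thus counted as separate samples, and its p-values do not measure the spread between libraries alone. Y-linked *Ddx3y* was at 113, 62.3, 35.3 and 2.96 CPM, and its fall (-2.18) turned to 0.17 with that term.

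*Ets1* (ENSMUSG00000032035, chr9:32636221-32757820), the targeted gene, was at 267 and 226 CPM in control and 119 and 86.1 CPM in eKO, so that the RNA of the labelled genotypes did not overlap. It fell by 1.22 on the log2 scale (SE 0.18, edgeR adjusted p = 0.0018), and the labels do not give which exons were floxed, so the counted end of the transcript may lie outside them. In the remaining mural endocardium *Ets1* was at 288 and 263 CPM in control and 119 and 95.5 CPM in eKO, and the effect did not differ between the classes (0.09, adjusted p = 0.993). *Gm3331*, a lincRNA 55.9 kb beyond *Ets1* at chr9:32813734-32834104, was singled out after its values were seen. It was at 0.609 and 0 CPM in control and 51.9 and 42.2 CPM in eKO (edgeR adjusted p = 5.24e-06). The eKO libraries also had 40.6 to 67.3 CPM in the other endothelial gates, and at most 0.917 CPM in the macrophage gate and 0.174 CPM in the cardiomyocyte gate.

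Of the 16 ETS family genes tested, *Ets1* fell and *Etv4*, an ETS factor induced by growth factor signalling, rose. *Etv4* was at 0.609 and 3.83 CPM in control and 14.8 and 17.7 CPM in eKO, with a log2 fold change of 3.13 ± 0.55 (edgeR adjusted p = 0.00695). *Fli1*, an ETS factor of endothelium, was at 266 and 347 CPM in control and 225 and 240 CPM in eKO (-0.34 ± 0.18, adjusted p = 0.368).

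Genes of the Notch pathway did not pass the test in these cells. *Dll4*, the Notch ligand of arterial and endocardial endothelium, was at 20.7 and 28.7 CPM in control and 19.2 and 17.3 CPM in eKO, with a log2 fold change of -0.34 ± 0.28 (edgeR adjusted p = 0.586). With sex as a term the estimate was 0.04. *Notch1* was at 248 and 273 CPM in control and 211 and 195 CPM in eKO (-0.30 ± 0.16, adjusted p = 0.38). *Nrg1* was at 315 and 300 CPM in control and 186 and 247 CPM in eKO (-0.45 ± 0.18, adjusted p = 0.24), and *Rbpj* at 65.2 and 64.2 against 75.4 and 65.4 CPM (0.18 ± 0.18, adjusted p = 0.67). The groups overlapped for none of *Notch1*, *Nrg1* and *Dll4*, lower in eKO, and *Rbpj*, higher in eKO, and did not overlap for 47.6% of all genes either. In all 0 of 21 Notch genes tested were called, with a median of -0.29 against 0.00 over all genes. Of these 21, 3 had an unadjusted p under 0.05, as had 1655 of all genes, and DESeq2 called 0 of the 21.

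The same shares of cells thinned to 3000 UMIs gave *Nrg1* in 37.9% and 35.1% of control and 29.5% and 35.8% of eKO cells, and *Dll4* in 6.21% and 10.3% of control and 6.59% and 5.79% of eKO cells. The libraries of the groups overlapped for both genes (exact permutation p = 0.667 for each). Without thinning they did not overlap, with *Nrg1* in 58.3% and 54.6% of control and 44.2% and 44.3% of eKO cells and *Dll4* in 20.2% and 23.7% against 14.7% and 8.86%, where the eKO cells were also the shallower ones. After thinning, *Slit2*, a secreted ligand of ROBO receptors, was detected in 42.9% and 46.4% of control and 29.8% and 35.0% of eKO cells. Its level was 283 and 288 CPM in control and 193 and 204 CPM in eKO (-0.47 ± 0.16, edgeR adjusted p = 0.171), while in the remaining mural endocardium the fold change was -0.72 (adjusted p = 0.0373) and the difference between classes was not past the threshold (0.24, adjusted p = 0.887). *Hmcn1* was at 1271 and 1044 CPM in control and 849 and 480 CPM in eKO (-0.75 ± 0.22, edgeR adjusted p = 0.111). *Col18a1*, which encodes collagen XVIII, was at 611 and 640 CPM in control and 561 and 519 CPM in eKO (-0.16 ± 0.17, adjusted p = 0.697).

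Endothelial transcription factors and signalling genes were among those that fell. *Sox18*, a factor of endothelial and lymphatic identity, was at 48.7 and 30.7 CPM in control and 5.23 and 7.18 CPM in eKO, a log2 fold change of -2.64 ± 0.32 (edgeR adjusted p = 0.000459). *Foxo1*, a forkhead factor, was at 258 and 276 CPM in control and 134 and 121 CPM in eKO (-1.01 ± 0.16, adjusted p = 0.0038). These were the 2 of 15 endocardial transcription factors called. *Flt4*, the receptor of lymphatic VEGF, fell by 1.41 (SE 0.30, edgeR adjusted p = 0.0265), and *Smad6*, an inhibitor of BMP signalling, by 0.97 (SE 0.18, adjusted p = 0.0106). With sex as a term *Smad6* did not pass (adjusted p = 0.145), and *Sox18*, *Foxo1* and *Flt4* did.

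The largest falls by the naming rule, which left out the Y-linked *Kdm5d* (-2.66) and *Ddx3y* (-2.18), included *Nova2* and *Kcnq1*. *Nova2*, an RNA-binding protein, was at 34.7 and 29.7 CPM in control and 6.97 and 2.11 CPM in eKO (-2.77 ± 0.39, edgeR adjusted p = 0.001). *Kcnq1*, a potassium channel gene, was at 35.9 and 41.2 against 4.79 and 7.18 CPM (-2.60 ± 0.31, edgeR adjusted p = 0.000408). *Inpp5d*, a phosphatase known from blood cells, fell by 2.07, *Cdh4*, a cadherin, by 1.88 and *Robo2* by 1.74. *Sfrp2*, a secreted WNT antagonist, was at 14 and 31.6 CPM in control and 1.31 and 0.422 CPM in eKO (-4.49 ± 0.62, edgeR adjusted p = 0.000969). With sex as a term *Sfrp2* and *Robo2* did not pass (adjusted p = 0.107 and 0.542).

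Immediate early and heat shock genes, which dissociation can induce, were lower in eKO for 9 of 20 listed, with a median of -0.85 against 0.00 over all genes. *Fos* was at 315 and 218 CPM in control and 99.4 and 113 CPM in eKO (-1.28 ± 0.19, edgeR adjusted p = 0.00138), *Jun* at 479 and 538 against 211 and 297 CPM (-0.94 ± 0.19, adjusted p = 0.0193), and *Btg2* at 241 and 170 against 78.9 and 83.2 CPM (-1.29 ± 0.18, adjusted p = 0.001). *Hspa1a* and *Hspa1b*, near-identical heat shock genes between which reads can be split, fell by 3.29 and 3.95. The remaining mural endocardium had 10 of 20 lower, with a median of -0.84. The part of sample handling in these values was not tested.

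On the higher side, *Mt1*, the metal-binding metallothionein 1, was at 9.74 and 9.58 CPM in control and 202 and 208 CPM in eKO, a log2 fold change of 4.46 ± 0.22 (edgeR adjusted p = 8.43e-09). *Col15a1*, a basement membrane collagen, was at 1.83 and 1.92 CPM in control and 38.4 CPM in both eKO libraries (4.38 ± 0.40, adjusted p = 2.47e-05). *Lyve1*, a hyaluronan receptor, was at 12.8 and 15.3 against 105 and 51.5 CPM (2.55 ± 0.34, edgeR adjusted p = 0.000761). The 2 values of each genotype lay far apart from those of the other for these 3 genes, and all 3 passed with sex as a term. *Cyp17a1*, a steroid-synthesis enzyme, rose by 2.55, *Slc1a3*, a glutamate transporter, by 2.55, *Abcc9*, a potassium channel subunit, by 2.33 and *Cdh13*, a cadherin, by 1.16.

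Of 8 mesenchymal markers tested, 3 were higher in eKO and none was lower, with a median of 0.31. *Lum*, the matrix proteoglycan lumican, was at 13.4 and 7.66 CPM in control and 58.0 and 49.8 CPM in eKO (2.34 ± 0.28, edgeR adjusted p = 0.000408), *Col1a2* at 100 and 63.2 against 225 and 208 CPM (1.44 ± 0.19, adjusted p = 0.000791), and *Dcn*, decorin, at 35.3 and 8.62 against 52.3 and 68.4 CPM (1.39 ± 0.34, adjusted p = 0.0451). Others did not pass, such as *Col3a1* at 354 and 389 against 310 and 360 CPM, *Postn* at 295 and 242 against 288 and 239 CPM, *Col1a1* at 71.9 and 37.4 against 31.4 and 70.1 CPM, and *Sox9* at 9.74 and 8.62 against 4.36 and 5.49 CPM. The summed mesenchymal markers were at 895 and 769 CPM in control and 989 and 1025 CPM in eKO, and in cells low in mesenchymal RNA all 3 passed, at 4.16 for *Lum*, 2.22 for *Col1a2* and 3.44 for *Dcn* (edgeR adjusted p = 5.3e-05, 4.41e-05 and 0.000978). Of all 196 calls, 135 held in those cells and 1 changed sign. As those cells were chosen by their mesenchymal RNA, the values of *Lum*, *Col1a2* and *Dcn* in them are no separate check of the rise. Of 11 cardiomyocyte markers outside the selection, *Tnni1* alone was called, higher at 83.4 and 63.2 against 158 and 207 CPM, and the list's median was 0.80. *Tnni3* (38.4 and 13.4 against 40.1 and 68.4 CPM) and *Myl7* (33.5 and 22.0 against 38.4 and 70.5 CPM) did not pass but were higher in eKO without overlap. The others overlapped between the groups, such as *Myl2* at 250 and 96.8 against 180 and 296 CPM. Among energy genes, 1 of 81 nuclear oxidative phosphorylation genes was called (*Cyc1*, 0.72 ± 0.17, edgeR adjusted p = 0.0383), with a median of 0.32, and edgeR and DESeq2 each called 0 of 13 mitochondrially encoded genes (2 at an unadjusted p under 0.05), with a median of -0.22. *Hbb-y*, embryonic globin, was at 21.3 and 8.62 CPM in control and 43.2 and 883 CPM in eKO, so that its call (4.92 ± 0.94, adjusted p = 0.0126) rests on eKO 2.

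**Figure D5:**
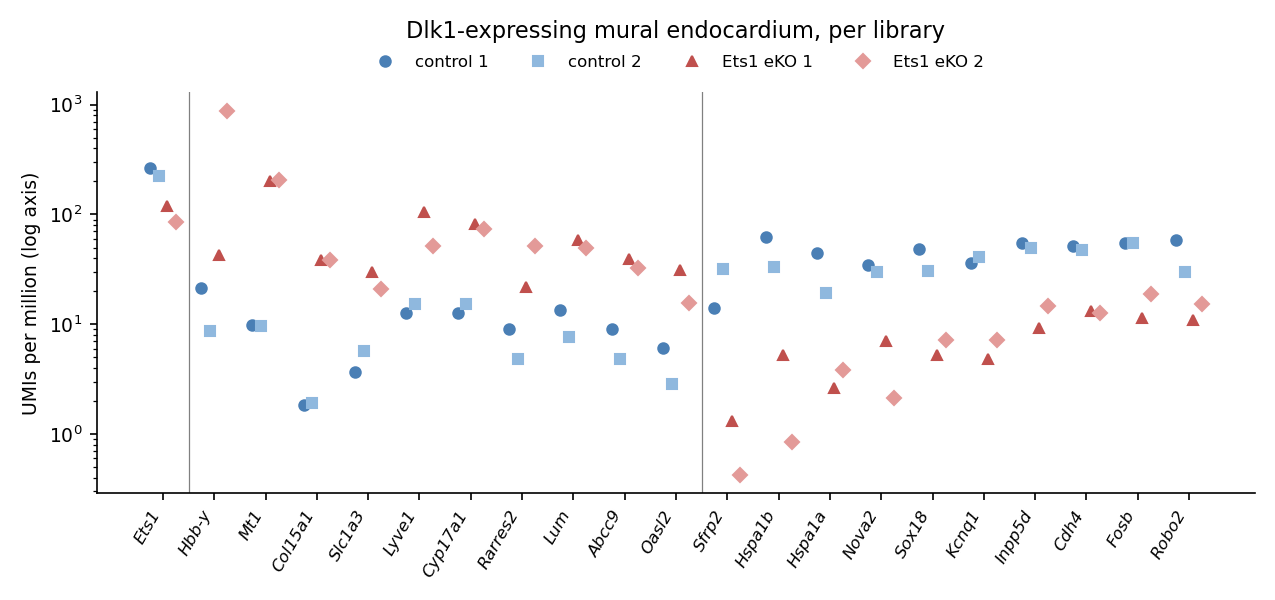
Levels in CPM, on a log axis, of *Ets1* and of the 10 largest rises and 10 largest falls by the naming rule in the *Dlk1*-expressing cells, with 1 point per library. That rule left out *Gm3331*, *Kdm5d* and *Ddx3y* despite the size of their changes. *Mt1* and *Col15a1* are higher and *Sox18* and *Ets1* lower in both eKO libraries, and *Hbb-y* stands out in eKO 2.

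The effect of *Ets1* eKO was tested for a difference between the *Dlk1*-expressing cells and the remaining mural endocardium. Of 11788 genes, 4 had a higher (0.0339%) and 8 a lower effect (0.0679%) in the *Dlk1*-expressing cells, or 0.102% (edgeR, class by genotype term), among them *Fabp4*, which the selection uses. DESeq2 called 0 genes, and edgeR called 0 with the thinned classes, while 606 genes had an unadjusted p under 0.05. *Ltbp1*, a latent TGF-beta binding protein, was at 393 and 359 CPM in control and 228 and 220 CPM in eKO in the *Dlk1*-expressing cells, and at 371 and 372 CPM in control and 329 and 294 CPM in eKO in the rest. The classes thus overlapped for *Ltbp1* in control and did not overlap in eKO.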

How the data were processed

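Droplet single-cell RNA-seq libraries (3′ kit) of 2 control and 2 *Ets1* eKO pools of ventricles were analysed. The authors made the deposited matrices of UMI counts per gene and barcode with Cell Ranger 7.1.0 on mm10, with called cells only and no normalization in the values, and their notes also name Seurat 4.3.0. That version of Cell Ranger counts intronic reads unless told otherwise, and the setting is not given in the sources used here. Genes were placed by GENCODE vM21, which holds 32235 of the 32285 gene IDs, and promoter windows came from RefSeq (GRCm38.p6), where 112 of the 153 named genes had one.

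No doublets were removed in the main analysis, and cells with the highest doublet scores (at a rate of 0.8% per 1000 barcodes) were left out in an alternative. The UMIs of each class were added up within a library, and edgeR 4.0.16 in R 4.3.3 was run on these sums (TMM, filterByExpr, quasi-likelihood), with Benjamini-Hochberg adjustment over all genes tested and a threshold of 0.05. The standard error of a fold change is its size divided by the square root of the F statistic. Genes of the selection rule stayed in the fits and in the counts of calls, with their values given as a description only, and some results are not reported here. CPM is UMIs per 1000000 summed UMIs of a class in a library. Shares have exact Clopper-Pearson 95% intervals, which cover counting error only, as do the limits that 3 counts of the total give for a count of 0. Tests were tried on simulated counts. Other steps used Python 3.11.15 with scanpy 1.11.5 and seed 0.

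Named genes were *Ets1*, the endocardial genes of the study, every called gene of the Notch, *Dlk1* cluster and ETS lists, up to 4 called genes of each other list, and the 10 largest changes in each direction at 20 CPM or more without overlap (for classes, with the same sign in 4 libraries). Left out of the largest changes between genotypes in the *Dlk1*-expressing cells, despite their size, were *Gm3331* (6.80) and the Y-linked *Kdm5d* (-2.66) and *Ddx3y* (-2.18). The cells and lists were chosen with earlier results of these data known. With sex as a term, male and female cells of a library were summed apart and entered as separate samples, without a term for library. Results were recomputed with DESeq2 1.42.0, without the filter on low counts, with total count scaling, each library left out, a replicate block, sex as a term (parts of at least 20 cells), *Dlk1* thresholds of 1 and 4 UMIs, thinning, cells of 5000 to 15000 UMIs, cells under 0.1% mesenchymal RNA, no high doublet scores, remaining cells with 0 *Dlk1* UMIs, and, chosen after seeing the data, no cells with an epicardial UMI and unthinned shares.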

Additional observations from a re-analysis of the deposited data

Results flagged for a closer look

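For 11 genes outside the selection rule the effect of *Ets1* eKO differed between the *Dlk1*-expressing cells and the remaining mural endocardium by the class by genotype term (edgeR, adjusted p of at most 0.05), of which 10 are given here as the effect in the *Dlk1*-expressing cells minus that in the rest on the log2 scale. Lower effects were found for *Sfrp2* (-3.40), the heparan sulfate sulfotransferase gene *Hs6st3* (-2.48), the SLIT receptor gene *Robo2* (-1.61), the neuregulin receptor gene *Erbb4* (-1.20), the cell adhesion gene *Ncam1* (-0.94), the collagen gene *Col3a1* (-0.55) and *Ltbp1* (-0.48). Higher effects were found for the potassium channel gene *Kcnc2* (0.78) and the embryonic globin genes *Hba-x* (3.07) and *Hbb-y* (3.75).

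Both globin values rest on control 2 and eKO 2. *Hbb-y* was at 21.3, 8.62, 43.2 and 883 CPM in the *Dlk1*-expressing cells of control 1, control 2, eKO 1 and eKO 2 and at 33.6, 311, 43.5 and 493 CPM in the rest. *Hba-x* was at 4.26, 1.92, 3.92 and 113 CPM against 4.31, 17.6, 4.98 and 33.0 CPM in the rest. *Kcnc2* was at 143, 113, 264 and 135 CPM in the *Dlk1*-expressing cells of the 4 libraries in the same order, and at 226, 169, 214 and 142 CPM in the rest. *Erbb4* was at 71.9 and 18.2 CPM in control and 39.2 and 51.1 CPM in eKO in the *Dlk1*-expressing cells, where the groups overlapped, and at 33.8 and 29.1 CPM in control and 77.5 and 59.3 CPM in eKO in the rest, where they did not. *Hs6st3* was at 12.2, 29.7, 8.72 and 7.60 CPM in the *Dlk1*-expressing cells and at 9.89, 21.0, 51.5 and 19.5 CPM in the rest, where eKO 1 stood highest. *Ncam1* was at 39.7 to 60.4 CPM in the *Dlk1*-expressing cells of all libraries and at up to 59.9 CPM in control and 92.2 and 80.4 CPM in eKO in the rest. The difference for *Robo2* turned to 0.41 with thinned classes and 0.42 in cells low in mesenchymal RNA, and those for *Hbb-y* and *Hba-x* turned to -0.54 and -1.09 in cells of 5000 to 15000 UMIs. None of the 10 passed with DESeq2 or with *Dlk1* counted in thinned cells.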

How the results depend on the processing

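The counts of called genes moved with the processing, and each pair below gives genes higher and lower. For eKO against control in the *Dlk1*-expressing cells (94 and 102), DESeq2 gave 36 and 31, total count scaling 58 higher, no filter on low counts 26 and 21, a threshold of 1 *Dlk1* UMI 161 and 166, of 4 UMIs 48 and 63, *Dlk1* counted after thinning 33 and 46, and sex as a term 56 and 59. Leaving out each library in turn gave 97 to 370 higher and 88 to 236 lower. In the remaining mural endocardium (145 and 143), DESeq2 gave 87 lower, no filter 437 and 385, a threshold of 1 UMI 95 and 83, cells of 5000 to 15000 UMIs 53 and 33, cells low in mesenchymal RNA 88 lower, no epicardial UMIs 89 lower, the replicate block 382 and 360, and leaving out a library 81 to 1118 and 54 to 781. Between the classes (400 and 370), DESeq2 gave 218 and 83, total count scaling 223 higher, a threshold of 4 UMIs 229 lower, cells of 5000 to 15000 UMIs 124 and 161, thinning 94 and 183, and leaving out a library 214 to 293 and 210 to 294. For the difference of effects (4 and 8), DESeq2 and thinning gave 0 and 0, no filter 8 and 17, a threshold of 1 UMI 2 lower, of 4 UMIs 7 higher, cells of 5000 to 15000 UMIs 2 and 2, cells low in mesenchymal RNA 2 lower, and leaving out a library 6 to 11 and 4 to 19. The 15.6 points between the shares of *Dlk1*-expressing cells were 13.3 and 8.81 after thinning to 3000 and 2000 UMIs, 21.5 and 7.85 at thresholds of 1 and 4 UMIs, and 14.4 to 16.9 without each library. The shares of cells with a UMI differed between the groups by -7.01 to -0.70 points for *Nrg1*, -4.12 to -0.020 for *Dll4*, -14.8 to -9.61 for *Slit2* and 25.2 to 34.1 for *Meg3* without each library, and *Kcnc2* (4.05) ranged from -1.48 to 9.57 and was -2.04 without thinning.

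Of 2439 values of named genes under alternatives, 2006 kept direction and call, 423 lost the call and 10 reversed. Reversed values were *Dll4* (0.040) and *Ddx3y* (0.17) with sex as a term, *Gpc3* (-0.33) and *Hbb-bs* (0.0079) between classes without high doublet scores, *Col1a1* (-0.19) without epicardial UMIs, and for the difference of effects *Hbb-y* (-0.54) and *Hba-x* (-1.09) in cells of 5000 to 15000 UMIs, *Hba-x* (-0.66) without high doublet scores, and *Robo2* with thinning (0.41) and in cells low in mesenchymal RNA (0.42). The causes were not tested.

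The main tests did not treat the replicate numbers as pairs. Deviations of same-numbered libraries correlated at -0.013 in the *Dlk1*-expressing cells and 0.027 in the rest. With a single difference between libraries in each group, these values cannot decide whether the numbers pair the samples. With the replicate block, 133 genes were higher and 133 lower in the *Dlk1*-expressing cells, and 382 and 360 in the rest. At 3000 UMIs per cell *Dll4* was detected in 5.79% to 10.3% of the *Dlk1*-expressing cells, so small differences in its share are not detectable at this depth.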

Other observations

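Further gene lists were compared between the *Dlk1*-expressing cells and the remaining mural endocardium, where 6.53% of all genes tested were called. Among junction genes, *Jup*, plakoglobin, was higher (0.37 ± 0.10, edgeR adjusted p = 0.0266), and *Jam2*, a junctional adhesion molecule, and *Gja4*, a connexin, were lower (-1.10 ± 0.17 and -0.38 ± 0.08, adjusted p = 9.79e-05 and 0.00471), so that 3 of 15 tested passed. In the VEGF and angiopoietin list 2 of 13 were lower, the receptor *Tek* (-0.16 ± 0.04, edgeR adjusted p = 0.0276) and its ligand *Angpt1* (-0.85 ± 0.23, adjusted p = 0.0247). In the BMP and TGF-beta list the co-receptor *Eng* (0.16 ± 0.04, edgeR adjusted p = 0.0141) and *Tmem100* (0.25 ± 0.06, adjusted p = 0.0138) were higher and *Tgfbr1* (-0.26 ± 0.08, adjusted p = 0.0374) was lower, out of 18 tested. Of 10 flow-responsive genes 3 were lower, *Klf4*, *Edn1* and the water channel *Aqp1*, of which *Aqp1* was at 5.75 to 9.13 CPM against 11.2 to 24.1 CPM in the rest (-1.05 ± 0.21, edgeR adjusted p = 0.00187). Of the genes in this paragraph, *Jam2*, *Angpt1* and *Edn1* also passed with *Dlk1* counted in thinned cells (-1.03, -1.79 and -0.86).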
